A study of Homo sapiens with 54 samples.

Results

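The expression of 8 ETS genes was followed in LNCaP xenograft tumours through castration, relapse and enzalutamide treatment. They comprise the PEA3 subfamily ETV1, ETV4 and ETV5, the fusion gene ERG, the broadly expressed ETS2, and the epithelial genes SPDEF, EHF and ELF3. They were taken by symbol as 8 of the 60642 rows of the expression table, because LNCaP is known to carry an ETV1 rearrangement and ETV1 could thus be set against ETS genes that luminal cells use from their own loci. LNCaP (clone FGC) is a human prostate cancer line from a lymph node metastasis that responds to androgen.

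ETS proteins share a winged helix-turn-helix domain that binds DNA around a GGAA core. In prostate cancer, members of the ERG and PEA3 branches are recurrently activated by rearrangements that place them under androgen-driven control elements, most often those of TMPRSS2. In LNCaP the whole ETV1 locus of chromosome band 7p21 is known to have been inserted into 14q13-q21, within MIPOL1 and near FOXA1, the pioneer factor of the luminal lineage. The values cannot separate transcripts of the rearranged and the native ETV1 copies. SPDEF, EHF and ELF3 are by contrast normal regulators of epithelial differentiation, and PEA3 proteins are stabilised and induced downstream of receptor tyrosine kinase and ERK signalling.

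All 54 tumours grew under the skin of male NOD-SCID mice, which lack functional B and T cells, and each mouse gave 1 tumour. PRE-CX tumours (n = 9) came from mock-operated mice and were taken at the size endpoint. The other 45 mice were castrated. POST-CX tumours (n = 8) were taken a week later at the low point of serum PSA, and CRPC tumours (n = 10) when PSA or tumour volume had recurred without drug. Mice of the last 2 groups received enzalutamide, an antiandrogen, by gavage at 10 mg/kg once PSA rose after castration. ENZS tumours (n = 12) were taken at the second PSA low point and ENZR tumours (n = 15) at recurrence on the drug. Group, tumour size and time since castration changed together and cannot be told apart, and every tumour derives from this clone.

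Values are TPM, an abundance corrected for transcript length and depth, estimated over the human and mouse transcriptomes together and deposited for human genes. Human genes made up between 12.1% and 97.5% of all TPM, with a median of 89.9%. In 4 tumours the share was under 70%: POST-CX mice 48 and 91, and ENZR mice 87 and 103. A low human share lowers every human gene of a tumour, so results are given both on TPM as deposited and after rescaling human TPM to the same total in every tumour. Rescaling moved the median log2 difference of all genes from -0.05 to 0.16 in POST-CX, from 0.11 to 0.08 in CRPC, from 0.26 to 0.29 in ENZS and from 0.07 to 0.25 in ENZR, each against PRE-CX. Fewer cells of a type and less RNA per cell cannot be told apart in such bulk samples. All 8 luminal markers passed the filter and their summed level ran from 337.7 to 9886 TPM, the lowest being the ENZR tumour of mouse 87. Of 8 endothelial markers 7 stayed under 1 TPM in every tumour, as did 4 of 6 blood markers.

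The upstream sequence of the genes that the comparisons turn on is shown here to place ETV1 beside the epithelial loci. The windows cover 250 bases before the most upstream start that the RefSeq table (GRCh38.p14) lists, which for EHF lies inside the span of the gene, with capitals marking CCGGAA, an ETS core, AGAACA, a steroid response half-site, or TGTTTAC, a forkhead motif, searched on both strands.
ETV1 (chr7:13991426-13991675, minus strand): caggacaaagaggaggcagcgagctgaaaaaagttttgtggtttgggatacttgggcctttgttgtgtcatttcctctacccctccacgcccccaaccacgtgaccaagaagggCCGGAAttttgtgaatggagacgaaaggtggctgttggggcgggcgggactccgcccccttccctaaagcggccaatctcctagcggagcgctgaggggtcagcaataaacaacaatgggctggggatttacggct
SPDEF (chr6:34556330-34556579, minus strand): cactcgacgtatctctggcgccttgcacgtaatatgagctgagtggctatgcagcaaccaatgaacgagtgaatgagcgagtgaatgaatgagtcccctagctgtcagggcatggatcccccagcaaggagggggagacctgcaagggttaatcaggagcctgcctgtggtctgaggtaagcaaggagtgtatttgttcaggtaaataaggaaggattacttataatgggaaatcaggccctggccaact
EHF (chr11:34624007-34624256, plus strand): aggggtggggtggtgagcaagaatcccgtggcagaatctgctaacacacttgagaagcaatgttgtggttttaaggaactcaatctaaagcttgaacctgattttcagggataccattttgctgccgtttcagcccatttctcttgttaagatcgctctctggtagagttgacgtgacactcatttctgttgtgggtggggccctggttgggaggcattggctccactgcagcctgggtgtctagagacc
The ETV1 window held 1 CCGGAA, and none of the 3 motifs occurred in the SPDEF and EHF windows. Among 35116 listed promoters of this length, 14.5% held CCGGAA, 12.4% AGAACA and 2.98% TGTTTAC. A match describes the letters and not a bound site.

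ETV1 was among the most abundant ETS transcripts of every group. Its gene spans chr7:13891229-13991425. In PRE-CX tumours it ranged from 94.6 to 241.8 TPM around a median of 146.1 TPM. In POST-CX tumours the lowest, median and highest values were 56.6, 204.8 and 227.2 TPM, and in CRPC tumours 107.7, 226.8 and 293.6 TPM. In ENZS tumours they were 28.1, 148.5 and 270.9 TPM, and in ENZR tumours 3.92, 141.2 and 315.8 TPM. By mean the order was CRPC (209.5 ± 59.7 TPM, SD, n = 10), POST-CX (179.8 ± 57.5, n = 8), PRE-CX (164.0 ± 49.7, n = 9), ENZS (152.9 ± 83.3, n = 12) and ENZR (148.5 ± 101.4, n = 15). Neighbours in this order differed by less than their SD, and all 5 ranges overlapped.

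EHF (chr11:34621093-34663288), which restrains epithelial plasticity, was the other abundant member, at 194.9 ± 57.8 TPM (SD, n = 9) in PRE-CX tumours. SPDEF (chr6:34537802-34556329), a luminal factor that can activate the PSA gene, stood at 62.1 ± 28.5 TPM there. ELF3 (chr1:202010587-202017183), induced by inflammatory signals in epithelia, stood at 47.4 ± 22.8 TPM. Within tumours EHF exceeded SPDEF and ELF3 in 54 of 54, and ETV1 exceeded SPDEF in 50 of 54 and ELF3 in 50 of 54. ETV1 was above EHF in 3 of 9 PRE-CX, 7 of 8 POST-CX, 9 of 10 CRPC, 6 of 12 ENZS and 9 of 15 ENZR tumours.

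The remaining members were low. ETS2 (chr21:38805183-38824955), a target of ERK phosphorylation, ran from 0.90 to 12.5 TPM over all tumours. ETV5 (chr3:186046314-186109089) averaged 0.30 ± 0.33 TPM (SD, n = 9) in PRE-CX tumours. ETV4 (chr17:43527846-43546340) reached 1 TPM in 1 of 54 tumours, and ERG (chr21:38367261-38661783) in none, with a highest value of 0.14 TPM and 48 of 54 tumours listed at 0. ERG is also an endothelial gene. Of 8 human endothelial markers 7 stayed under 1 TPM in every tumour, among them PECAM1 and CDH5 at no more than 0.06 and 0.11 TPM. VWF was the exception, and the summed markers reached 7.43 TPM in PRE-CX tumours. Human TPM do not count mouse vessels, and the source of the ERG values was not tested. ETV4 and ERG did not pass the filter of 1 TPM in 8 tumours, which 6 members and 17131 genes passed. ETV5 passed it with 20 of 54 tumours: 1 PRE-CX, 1 POST-CX, 4 CRPC, 6 ENZS and 8 ENZR. It thus entered the tests only through the groups where it was high, as the PRE-CX, POST-CX and CRPC tumours alone would not have passed it.

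**Figure D1:**
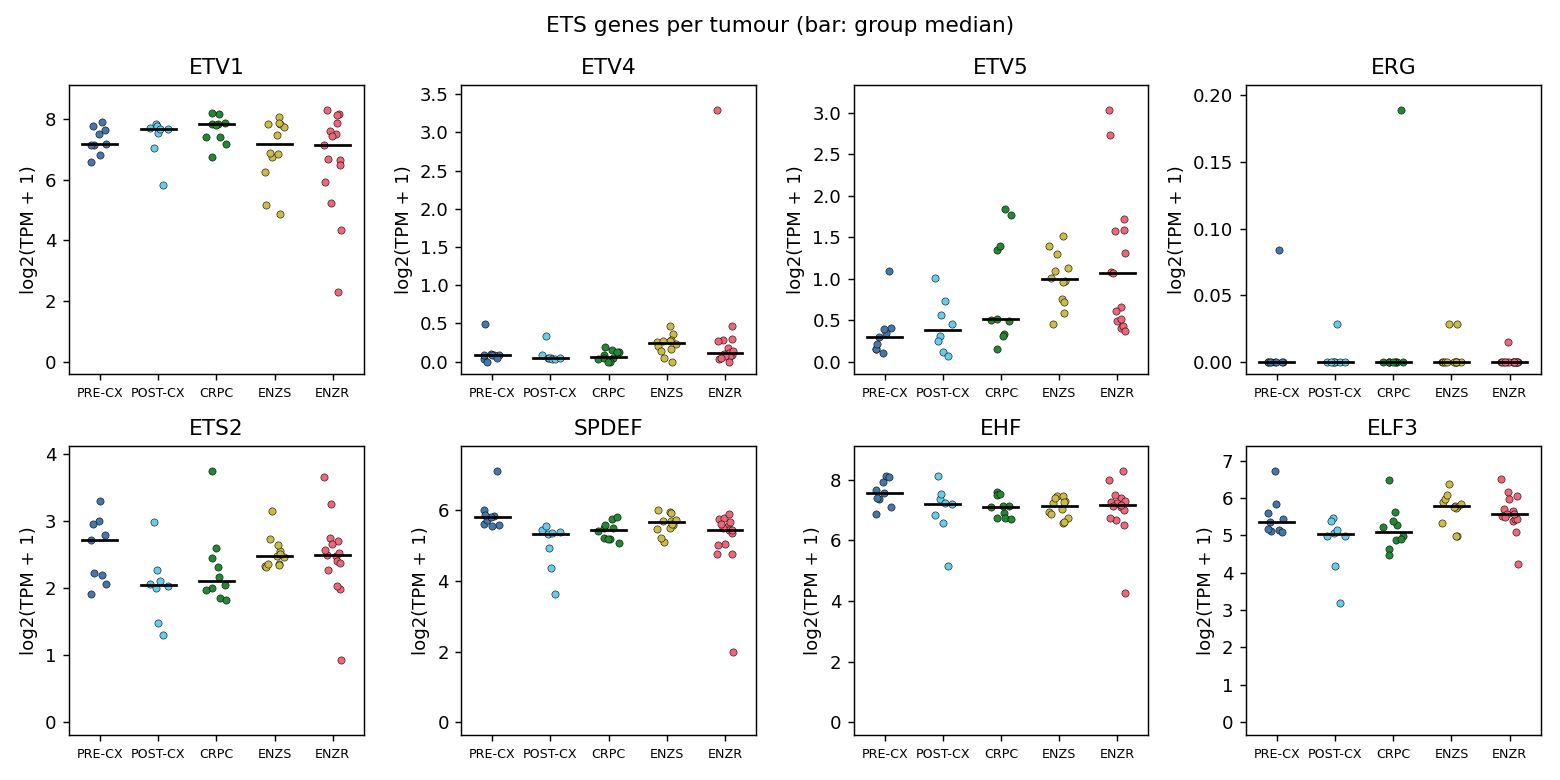
Level of the 8 ETS genes in each tumour as log2(TPM + 1) by group, with the vertical scale set for each gene, points for tumours and bars for group medians. ETV1 spread from 3.92 to 315.8 TPM among ENZR tumours, 8 of 8 POST-CX tumours had less SPDEF than any PRE-CX tumour, and ETV4 was raised in a single ENZR tumour.

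The first comparison asked what castration did within a week. Of the 6 members tested, 0 passed at an adjusted p under 0.05 on TPM as deposited (limma), where 1.66% of all genes tested were higher and 2.67% lower in POST-CX than in PRE-CX tumours and 2969 genes had an unadjusted p under 0.05. On rescaled TPM 1 of 6 passed, SPDEF, beside 26.8% of all genes in either direction. SPDEF ranged from 11.3 to 45.3 TPM around a median of 39.0 TPM in POST-CX tumours and from 45.9 to 136.8 TPM around 54.9 TPM in PRE-CX tumours, and the groups did not overlap. After rescaling the ranges were 32.7 to 48.2 and 55.3 to 146.2 TPM and still did not overlap. The share of all genes without overlap between these groups was not computed. The log2 difference of SPDEF was -0.91 ± 0.29 (SE, limma adjusted p = 0.0640) as deposited and -0.65 ± 0.16 (limma adjusted p = 0.00247) rescaled. ETV1 differed by 0.09 (95% interval -0.90 to 1.07, limma adjusted p = 0.950). EHF and ELF3 differed by -0.57 and -0.70 on the log2 scale with limma adjusted p of 0.327 and 0.134. After median-centring SPDEF, EHF (-0.52, limma adjusted p = 0.0274) and ELF3 (-0.65, limma adjusted p = 0.0294) passed, beside 4114 of all genes.

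In CRPC tumours 0 of 6 members passed as deposited against PRE-CX, where 5.55% of all genes were higher and 1.87% lower, with 3368 genes at an unadjusted p under 0.05 (limma). On rescaled TPM 2 of 6 passed, SPDEF and EHF, both lower, beside 20.4% of all genes. SPDEF was 42.0 ± 7.48 TPM (SD, n = 10), below the PRE-CX median in 10 of 10 tumours, with a rescaled log2 difference of -0.52 ± 0.15 (SE, limma adjusted p = 0.0108). EHF was 140.0 ± 34.1 TPM, below the PRE-CX median in 9 of 10 tumours, with a rescaled log2 difference of -0.49 ± 0.17 (SE, limma adjusted p = 0.0339). ETV5 ran from 0.11 to 2.58 TPM around a median of 0.42 TPM and differed by 0.52 (limma adjusted p = 0.240). ETV1 was above the PRE-CX median in 9 of 10 CRPC tumours and differed by 0.35 (95% interval -0.58 to 1.28, limma adjusted p = 0.776).

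At the low point under enzalutamide 1 of 6 members passed as deposited against PRE-CX: ETV5 rose, in a comparison where 30.3% of all genes were higher and 8.18% lower. ETV5 had passed the filter only through later groups, with 1 of 9 PRE-CX and 6 of 12 ENZS tumours at 1 TPM or more. ETV5 ranged from 0.37 to 1.87 TPM around a median of 0.99 TPM in ENZS tumours and from 0.07 to 1.14 TPM around 0.23 TPM in PRE-CX tumours. The groups overlapped, but 12 of 12 ENZS tumours lay above the PRE-CX median, and the log2 difference was 0.64 ± 0.24 (SE, limma adjusted p = 0.0301). Without ENZS mouse 28 the adjusted p was 0.0518 and without PRE-CX mouse 62 it was 0.0508. With each tumour centred on its own median the difference was 0.39 (limma adjusted p = 0.246), and without the filter on low values the adjusted p was 0.0589. On rescaled TPM 2 of 6 passed beside 61.6% of all genes, ETV5 again and EHF. EHF was 136.0 ± 29.9 TPM (SD, n = 12), below the PRE-CX median in 12 of 12 tumours, at a rescaled log2 difference of -0.46 ± 0.17 (SE, limma adjusted p = 0.0148). SPDEF differed by -0.28 as deposited (limma adjusted p = 0.427) and by -0.53 after median-centring (limma adjusted p = 0.00194), where 9089 of all genes passed. ETV1 differed by -0.33 (95% interval -1.22 to 0.56, limma adjusted p = 0.590).

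At recurrence on enzalutamide 2 of 6 members passed against PRE-CX, where 17.6% of all genes were higher and 11.5% lower. ETV5 rose and SPDEF fell, and 2 of 6, the same genes, passed on rescaled TPM beside 58.8% of all genes. ETV5 ran from 0.29 to 7.20 TPM around a median of 1.09 TPM in ENZR tumours, above the PRE-CX median in 15 of 15 tumours, and differed by a log2 value of 0.82 (SE 0.23, adjusted p = 0.00501 by limma). ETV5 reached 1 TPM in 8 of 15 ENZR and 1 of 9 PRE-CX tumours, so it had entered this test only through groups where it was high. Its 2 highest values, 7.20 and 5.63 TPM, came from ENZR mice 94 and 103. SPDEF ran from 2.97 to 57.6 TPM around 42.5 TPM, below the PRE-CX median in 14 of 15 tumours, and differed by a log2 value of -0.73 (SE 0.26, adjusted p = 0.0252 by limma). Leaving out PRE-CX mouse 112, whose SPDEF was 136.8 TPM, gave -0.58 with a limma adjusted p of 0.0921, and a fit of the compared groups alone gave 0.103. After median-centring 3 of 6 members passed in ENZR, beside 8801 of all 17131 genes tested. They were ETV5, SPDEF and also EHF, which was lower by a log2 value of -0.58 (adjusted p = 0.00151 by limma). ETV1 differed by -0.65 (95% interval -1.50 to 0.21, limma adjusted p = 0.264).

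**Figure D2:**
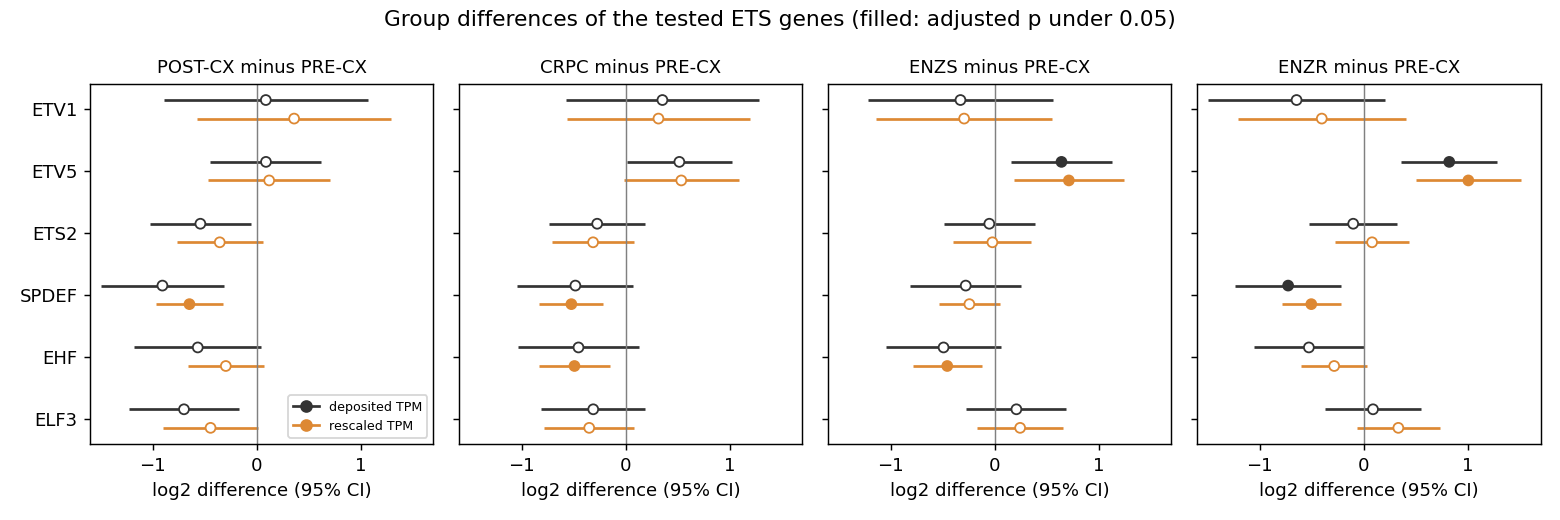
Log2 differences from PRE-CX of the 6 tested members with 95% intervals, on TPM as deposited (dark) and rescaled (orange), with filled points at a limma adjusted p under 0.05. ETV5 is filled on both scales in ENZS and ENZR, SPDEF on both in ENZR and on rescaled TPM in POST-CX and CRPC, and ETV1 is open in each panel.

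Between successive stages few members moved. From POST-CX to CRPC 0 of 6 members passed, as did 0% of all genes in the higher and 0% in the lower direction and 0.0467% on rescaled TPM, with 1154 genes at an unadjusted p under 0.05 (limma). From CRPC to ENZS 0 of 6 passed as deposited, beside 6.21% higher and 2.71% lower among all genes and 3865 genes at an unadjusted p under 0.05. On rescaled TPM 1 of 6 passed beside 38.2% of all genes. That gene was ELF3, which rose from 41.5 ± 19.5 rescaled TPM (SD, n = 10) in CRPC to 60.9 ± 16.4 rescaled TPM (n = 12) in ENZS tumours, with overlapping ranges and a rescaled log2 difference of 0.60 ± 0.20 (SE, limma adjusted p = 0.0175). From ENZS to ENZR 0 of 6 passed, beside 0% higher, 0.0175% lower and 0% on rescaled TPM, with 1914 genes at an unadjusted p under 0.05. The change at relapse on enzalutamide did not differ from that after castration alone in any of the 6 members at an adjusted p under 0.05, beside 0% higher, 0.187% lower and 0.204% on rescaled TPM, with 3352 genes at an unadjusted p under 0.05 (limma).

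ETV1 was next compared with SPDEF, EHF, ELF3 and ETS2 inside each tumour, as log2((ETV1 + 1)/(other + 1)), so that the human share largely cancels. Of 28 comparisons (4 ratios over 7 pairs of groups) 3 had an adjusted p under 0.05, all of them raised against PRE-CX. A ratio rises when ETV1 rises or when the other gene falls. In POST-CX ETV1 differed by 0.09 and SPDEF by -0.91 on the log2 scale, so most of that ratio's change repeats the SPDEF difference. In CRPC ETV1 differed by 0.35, SPDEF by -0.48 and EHF by -0.45. ETV1 by itself passed in neither group. The ETV1 to SPDEF ratio ran from 0.53 to 2.09 around a median of 1.44 in PRE-CX and from 1.53 to 3.19 around 2.33 in POST-CX tumours. The mean rose by 0.99 (2.41 ± 0.49 against 1.41 ± 0.49, SD, two-sided exact permutation test, p = 0.000946, adjusted p = 0.0265), and 8 of 8 POST-CX tumours lay above the PRE-CX median. In CRPC the same ratio was 0.84 higher (2.25 ± 0.50, exact permutation p = 0.00209, adjusted p = 0.0292), in 9 of 10 tumours above that median. The ETV1 to EHF ratio was 0.81 higher in CRPC (0.56 ± 0.54 against -0.25 ± 0.48, exact permutation p = 0.00407, adjusted p = 0.0380), also in 9 of 10 tumours.

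The ratios of ETV1 to ELF3 were 0.79 higher in POST-CX (exact permutation p = 0.0228, adjusted p = 0.121) and 1.20 lower in ENZS than in CRPC (permutation p = 0.0124, adjusted p = 0.0865). Against ETS2 the largest difference was -0.90 in ENZS against CRPC (permutation p = 0.0499, adjusted p = 0.175). In ENZS and ENZR the ratio to SPDEF differed from PRE-CX by -0.05 and 0.08, while its SD was 1.15 and 1.61. Without PRE-CX mouse 112, an alternative chosen after seeing the data, the SPDEF ratio in POST-CX kept an adjusted p of 0.0479 (exact permutation), and the CRPC ratios to SPDEF and EHF had 0.0649 and 0.0695.

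**Figure D3:**
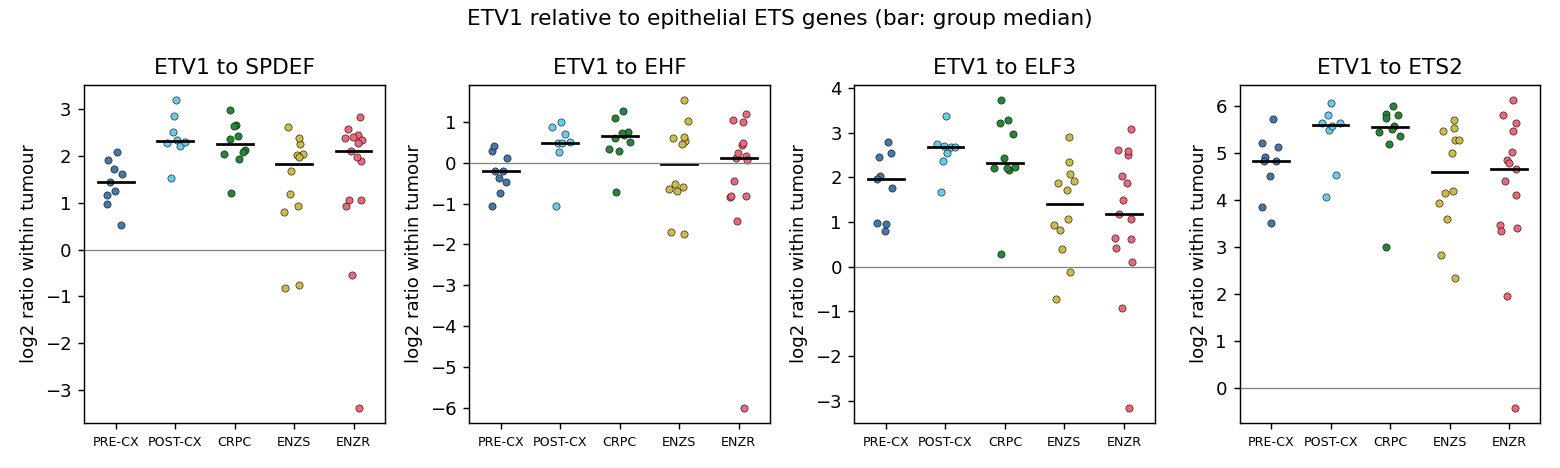
Log2 ratio of ETV1 to SPDEF, EHF, ELF3 and ETS2 within each tumour by group, with points for tumours, bars for group medians and a grey line at equal levels. The SPDEF ratio of POST-CX tumours had a median of 2.33 against 1.44 in PRE-CX, and the lowest point of each panel among ENZR tumours is mouse 75.

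The enzalutamide groups differed from the others in how widely ETV1 ranged. On rescaled TPM the SD of log2 ETV1 was 0.38 in PRE-CX, 0.33 in POST-CX and 0.45 in CRPC tumours, and 1.08 in ENZS and 1.52 in ENZR tumours. Among 11155 genes with a mean of at least 5 TPM, ETV1 stood at the 98.3 and 99.0 percentile of this SD in ENZS and ENZR, against 71.2, 80.8 and 86.0 in PRE-CX, POST-CX and CRPC. SPDEF, EHF and ELF3 lay between the 56.1 and 85.5 percentile in both enzalutamide groups. Without the ENZR tumour lowest in ETV1 its SD there was 0.81 (95.4 percentile), and without the 2 lowest ENZS tumours it was 0.56 (93.5 percentile). The difference in spread between groups was not tested.

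The lowest values belonged to few tumours. The ENZR tumour of mouse 75 had ETV1 at 3.92 TPM with a human share of 94.9%, EHF at 311.1 TPM, SPDEF at 50.0 TPM and KLK3, the gene of PSA, at 4736 TPM. ENZS mice 101 and 49 had ETV1 at 28.1 and 35.0 TPM, and ENZR mouse 72 at 36.7 TPM, with SPDEF between 48.1 and 62.4 TPM in these 3 tumours. The SPDEF medians of their groups were 49.4 TPM in ENZS and 42.5 TPM in ENZR, so that low ETV1 stood beside SPDEF near or above its group median. The ENZR tumour of mouse 87 had ETV1 at 19.3 TPM as deposited and 158.6 TPM after rescaling, with a human share of 12.1%. ENZR mouse 94 stood out in the other PEA3 genes, with ETV4 at 8.80 TPM and ETV5 at 7.20 TPM while ETV1 was 141.2 TPM, EHF 252.2 TPM and ELF3 90.4 TPM.

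The genes most like ETV1 were sought over the 54 tumours by Pearson's r of rescaled log2 values, as a description, since tumours share groups and depth. DGKB, a diacylglycerol kinase whose gene (chr7:14145049-14974858) lies 153.6 kb from ETV1, came first of 11154 genes with r = 0.74. RIPOR2 and TMEFF2 followed with r = 0.69 each, and ARL1 (-0.62) and CHPT1 (-0.61) were lowest. After subtracting each group's mean, SLC4A4, a bicarbonate cotransporter, came first (0.84), followed by RIPOR2 (0.76) and DGKB (0.74). The lowest were then CHPT1 (-0.67) and MCTS1 (-0.62). Within single groups, r of ETV1 with DGKB was 0.63 in PRE-CX, 0.55 in POST-CX, 0.81 in CRPC, 0.84 in ENZS and 0.78 in ENZR tumours. Without the 2 tumours farthest from the ETV1 median it was 0.57, -0.13, 0.73, 0.58 and 0.47, so that the POST-CX value rested on those tumours. TMEM106B, farther along 7p21, had r = -0.04 with ETV1 over all tumours. DGKB was itself low, at 6.83 ± 1.46 TPM (SD, n = 9) in PRE-CX, and passed in no comparison as deposited. On rescaled TPM it was higher in POST-CX than in PRE-CX (0.59, limma adjusted p = 0.0347).

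The insertion site on chromosome 14 was examined in the same way. Over all tumours r with ETV1 was 0.53 for TTC6, 0.44 for MIPOL1 and 0.33 for FOXA1, which ranked 34, 120 and 561 of 11154 genes. Among the 14 genes around the site with a mean of at least 5 TPM, r ran from -0.30 (BRMS1L) to 0.53 (TTC6), and it was below 0 for 7 of 14. Of 30 within-group correlations (6 genes in 5 groups), 2 had an adjusted p under 0.05, both in CRPC tumours. ETV1 and MIPOL1 had r = 0.88 there (n = 10, permutation p = 4e-04, adjusted p = 0.0120) and Spearman's rho = 0.95 (permutation p = 0.00012, adjusted p = 0.00360). ETV1 and FOXA1 had r = 0.88 (n = 10, permutation p = 0.00088, adjusted p = 0.0132), with rho = 0.71 (permutation p = 0.0265, adjusted p = 0.265). Without the 2 tumours farthest from the ETV1 median these r were 0.76 and 0.67. In ENZR tumours r was 0.59 with MIPOL1 and 0.61 with FOXA1 (permutation p = 0.0155 and 0.0132, adjusted p = 0.0775 each). No correlation with SPDEF, EHF, ELF3 or ETS2 had an adjusted p under 0.05, the nearest being ETS2 in POST-CX (r = -0.87, n = 8, exact p = 0.00556, adjusted p = 0.0556, rho = -0.60) and ELF3 in CRPC (r = -0.76, permutation p = 0.0130, adjusted p = 0.0775).

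**Figure D4:**
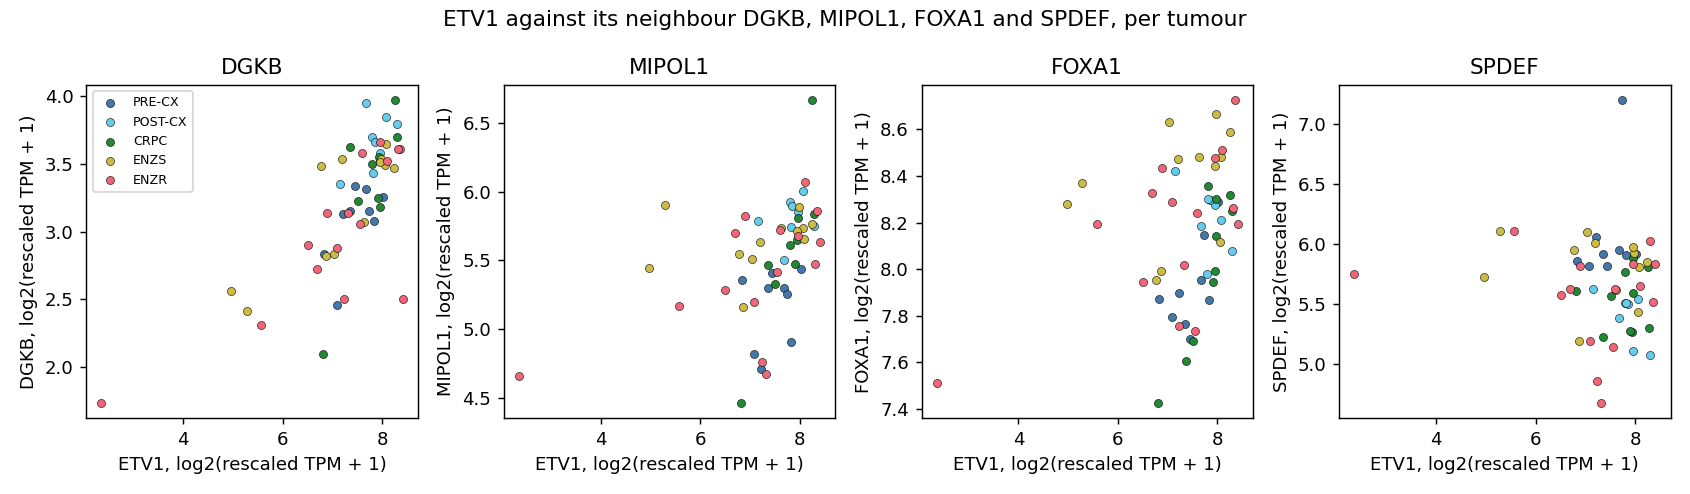
Each tumour's ETV1 (horizontal) against DGKB, MIPOL1, FOXA1 and SPDEF (vertical), as log2(rescaled TPM + 1), coloured by group. ETV1 and DGKB ran together (r = 0.74 over 54 tumours), and the tumour far to the left is ENZR mouse 75.

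For the other members the most similar genes were KRT18, a luminal keratin, for SPDEF (r = 0.77), MAFF, a small stress-induced leucine zipper factor, for ELF3 (0.75), OTULIN, a deubiquitinase of linear chains, for EHF (0.73), JMJD6 for ETS2 (0.68) and LRRTM3 for ETV5 (0.63). After subtracting group means JMJD6 was again first for ETS2, and the first gene was CREB3L4 for SPDEF, GDF15 for ELF3, RPS6KB1 for EHF and ANK3-DT for ETV5. On TPM as deposited it was ZBTB24 for EHF and GADD45B for ELF3, and the same gene for SPDEF, ETS2 and ETV5. Over the same tumours ETV1 itself had r of -0.11 with SPDEF, -0.13 with EHF and -0.21 with ELF3.

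The counts of the gene lists that follow are on TPM as deposited against PRE-CX. Over all genes tested, 1.66% were higher and 2.67% lower in POST-CX, 5.55% and 1.87% in CRPC, 30.3% and 8.18% in ENZS, and 17.6% and 11.5% in ENZR. On rescaled TPM 4596, 3495, 10549 and 10081 of the 17131 genes passed in these comparisons, of which 3615, 2478, 8186 and 7683 were higher. After median-centring 4114, 3514, 9089 and 8801 passed, of which 1808, 1890, 4452 and 4327 were higher. Genes that serve as 5′ partners of ETS fusions in other prostate cancers were listed to be set beside ETV1, and all 10 were tested. The list was not limited to androgen-driven genes. In POST-CX tumours 5 of 10 fell and 0 rose (list median -1.17 beside -0.05 for all genes, log2), in CRPC 2 of 10 fell and 0 rose (-0.64 beside 0.11), in ENZS 5 of 10 fell and 2 rose (-0.56 beside 0.26), and in ENZR 5 of 10 fell and 0 rose (-0.71 beside 0.07). TMPRSS2 fell from 487.1 ± 190.9 TPM (SD, n = 9) in PRE-CX to 149.2 ± 91.5 TPM (n = 8) in POST-CX, a log2 difference of -1.89 (SE 0.40, adjusted p = 0.00122 by limma), and the groups did not overlap, since POST-CX reached 306.4 TPM and PRE-CX began at 311.8 TPM. SLC45A3, the prostein gene, fell from 163.3 ± 50.9 to 9.70 ± 11.3 TPM in ENZR tumours (log2 difference -4.37 ± 0.43, SE, limma adjusted p = 4.37e-12). KLK2, a kallikrein, fell by 2.60 on the log2 scale in POST-CX (limma adjusted p = 0.00729). On rescaled TPM 0, 0, 2 and 2 of the 10 rose and 5, 4, 5 and 5 fell, and after median-centring 0, 0, 2 and 1 rose and 6, 5, 6 and 6 fell. The directions of the 3 named genes held on rescaled and median-centred values, and ETV1 passed in none of the same comparisons. The difference between ETV1 and these genes was not tested.

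Among 20 other ETS genes 14 were tested. In POST-CX 0 of 14 passed, in CRPC 1 of 14 rose and 0 fell, in ENZS 4 of 14 rose and 0 fell, and in ENZR 4 of 14 rose and 2 fell. Their median log2 differences were -0.02, 0.15, 0.21 and 0.14. On rescaled TPM 3, 3, 7 and 7 rose and 0, 1, 0 and 2 fell from POST-CX to ENZR, and after median-centring 2, 2, 5 and 4 rose and 1, 3, 4 and 4 fell. ELK3, a ternary complex factor that can repress until phosphorylated, was the gene that rose in CRPC, from 2.72 ± 0.89 TPM (SD, n = 9) to 6.38 ± 1.48 TPM (n = 10, log2 difference 0.995 ± 0.20, SE, limma adjusted p = 0.000362). It stood at 7.95 ± 1.77 TPM in ENZS (limma adjusted p = 2.25e-07). ELF1, a broadly expressed member, rose from 22.1 ± 6.42 to 48.7 ± 12.9 TPM in ENZS (log2 difference 1.11 ± 0.24, SE, limma adjusted p = 0.000165).

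Of the 18 feedback genes of ERK and FGF signalling, the pathway that acts on PEA3 factors, 13 were tested. In POST-CX 0 rose and 2 fell, in CRPC 2 rose and 0 fell, in ENZS 6 rose and 1 fell, and in ENZR 5 rose and 2 fell, with medians of -0.01, 0.13, 0.54 and 0.31. On rescaled TPM 3, 3, 7 and 6 rose and 2, 1, 1 and 2 fell, and after median-centring 2, 2, 4 and 4 rose and 2, 1, 2 and 2 fell. PHLDA1, an ERK-induced gene, rose from 4.20 ± 5.37 TPM (SD, n = 9) in PRE-CX to 12.1 ± 8.68 TPM (n = 12) in ENZS (log2 difference 1.43 ± 0.41, SE, limma adjusted p = 0.00385). DUSP4, a phosphatase that inactivates ERK, fell from 11.5 ± 7.11 to 4.49 ± 4.14 TPM in ENZR (log2 difference -1.20 ± 0.31, SE, limma adjusted p = 0.00203).

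Of 14 genes that act on the stability or induction of PEA3 factors, 13 were tested. In POST-CX and in CRPC 0 rose and 1 fell, in ENZS 3 rose and 1 fell, and in ENZR 2 rose and 1 fell, with medians of -0.03, 0.08, 0.38 and 0.11. On rescaled TPM 3, 0, 9 and 8 rose and 1 fell in each comparison, and after median-centring 2, 0, 4 and 4 rose and 1 fell in each. FGFR1, a receptor tyrosine kinase, rose from 8.43 ± 3.03 TPM (SD, n = 9) to 17.8 ± 4.21 TPM (n = 12) in ENZS (log2 difference 1.02 ± 0.27, SE, limma adjusted p = 0.00172). DET1, part of an ubiquitin ligase that degrades PEA3 proteins, rose from 3.64 ± 1.03 to 6.11 ± 0.96 TPM there (limma adjusted p = 0.00518).

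The genes around both loci were listed by position. Of 10 neighbours of ETV1 on 7p21, 4 were tested, and 0 passed in POST-CX and CRPC, 2 rose in ENZS and 1 rose in ENZR. TMEM106B, a lysosomal gene, rose from 48.7 ± 9.44 to 76.4 ± 12.6 TPM in ENZS (limma adjusted p = 0.0287). On rescaled TPM 1, 1, 2 and 2 of the 4 rose and 0 fell. Of 19 genes around the insertion site on 14q13-q21, 15 were tested, and 0 passed in POST-CX and CRPC, 3 rose in ENZS and 1 rose in ENZR. On rescaled TPM 2, 1, 7 and 5 of 15 rose and 0, 0, 1 and 0 fell, and after median-centring 2, 1, 3 and 2 rose and 0, 0, 4 and 3 fell. FOXA1 had means of 218.9, 236.2, 239.6, 293.7 and 240.4 TPM and MIPOL1 of 31.7, 44.4, 46.6, 43.2 and 36.1 TPM from PRE-CX to ENZR, and neither passed as deposited. On rescaled TPM MIPOL1 was higher in POST-CX (0.64, limma adjusted p = 0.00540) and ENZS (0.48, limma adjusted p = 0.00842), and FOXA1 in ENZS (0.45, limma adjusted p = 0.000910) and ENZR (0.25, limma adjusted p = 0.0492).

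Of 12 invasion proteases known as PEA3 targets in other cells, 4 were tested, and 1 fell in each of the 4 comparisons with PRE-CX while 0 rose. That gene was MMP7, matrilysin, which fell from 9.55 ± 5.27 TPM (SD, n = 9) in PRE-CX to 1.45 ± 0.95 TPM (n = 8) in POST-CX (log2 difference -2.04 ± 0.50, SE, limma adjusted p = 0.00720).

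Human genes used as markers of fibroblasts and pericytes moved with the same groups. Of 6 such genes 5 were tested, and 0 passed in POST-CX, 3 rose in CRPC, 4 in ENZS and 3 in ENZR, while 0 fell. On rescaled TPM 1, 3, 4 and 4 rose and 0, 1, 0 and 0 fell from POST-CX to ENZR. After median-centring 1, 3, 3 and 4 of these genes rose and 0, 1, 0 and 0 fell. Their summed level ran from 5.84 to 14.4 TPM in PRE-CX, 6.10 to 28.0 TPM in POST-CX, 12.0 to 92.3 TPM in CRPC, 17.5 to 234.4 TPM in ENZS and 6.25 to 78.4 TPM in ENZR tumours. Their part in the rise of ETV5 was not tested. These are TPM assigned to human genes in tumours grown from LNCaP cells in mice. They do not measure mouse stroma, vessels or blood, and their source was not tested. VWF, the 1 endothelial marker tested, fell in CRPC, ENZS and ENZR, and CD68, the 1 blood marker tested, rose in ENZS. Of 6 neuroendocrine genes 2 were tested, and 1, SYP, rose in ENZS and ENZR while the other did not pass. Of the 6, 4 stayed under 1 TPM in every ENZS tumour and 3 in every ENZR tumour. Over all genes tested, 30.3% were higher in ENZS and 17.6% in ENZR, and 1.87%, 8.18% and 11.5% were lower in CRPC, ENZS and ENZR.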

How the data were processed

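Total RNA of 54 xenograft tumours was sequenced as strand-specific, polyA-enriched libraries. Per the labels and the study's methods, reads were trimmed with Trim Galore (0.6.5), checked with FastQC (0.11.9) and aligned with STAR (2.7.2b) to GRCh38 and GRCm38, and RSEM (1.3.3) gave the deposited TPM of human genes, named by symbol. TPM keep no read depth, so no counting interval is given.

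Genes with at least 1 TPM in at least 8 tumours were tested on log2(TPM + 1) with limma (3.58.1, R 4.3.3), with 5 group means and a trended prior. A fold on this scale understates the change of low genes. P-values were adjusted by Benjamini-Hochberg over all 17131 genes within a comparison, and the fit was tested on simulated data. Ratios and correlations used permutation tests (Python 3.11.15), enumerated in full for any group below 10 tumours (exact) and with 100000 resamples otherwise. Named were all 8 members, FOXA1, MIPOL1 and TMPRSS2, DGKB and other genes by rank of r (the 3 highest and 2 lowest for ETV1, 1 for the others), and from each list in each comparison up to 2 passing genes of largest difference whose mean reached 5 TPM in the higher group. TTC6, BRMS1L, TMEM106B (for its r), the genes most similar under other scalings, VWF, CD68, SYP, PECAM1, CDH5 and KLK3 were named after their values were seen, as were the individual tumours described. The counts of the luminal marker list are not reported here. Members and lists were chosen with earlier results of these data known. Positions and upstream sequence come from RefSeq (GRCh38.p14). Promoters were matched for 6 of 8 members. Alternatives were rescaled and median-centred TPM, another pseudocount, no filter, no trend, the compared groups alone, tumours under 70% human TPM left out, and each tumour left out in turn.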

Additional observations from a re-analysis of the deposited data

Results flagged for a closer look

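In 11 of the 24 groups of 8 to 10 tumours examined, 1 tumour lay far above the rest of its group by Dixon's criterion at 95%. Chance passes it in about 1 of 20 groups only where values are normally distributed. The criterion was run on TPM, which need not be, so the count cannot be set against that rate. In the ERG groups only 1 tumour was above 0, so the criterion was met by construction. Of these values 5 were under 1 TPM. ETV4 was at 0.40 TPM in PRE-CX mouse 111 and at 0.26 TPM in POST-CX mouse 99. ERG was at 0.06 TPM in PRE-CX mouse 53, at 0.02 TPM in POST-CX mouse 86 and at 0.14 TPM in CRPC mouse 89, the other tumours of each group being listed at 0. ETV5 was at 1.14 TPM in PRE-CX mouse 112.

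The same PRE-CX tumour, of mouse 112, had SPDEF at 136.8 TPM, against 62.4 TPM in the next tumour of the group. The SPDEF difference in ENZR and the ETV1 ratios are given with and without it. The rescaled SPDEF differences in POST-CX and CRPC are given only with it. As deposited, leaving out 1 tumour at a time moved SPDEF from -0.98 to -0.71 in POST-CX and from -0.53 to -0.33 in CRPC. ELF3 was at 104.7 TPM in PRE-CX mouse 62. CRPC mouse 81 stood apart in 2 genes, with ETS2 at 12.5 TPM and ELF3 at 87.6 TPM, and it also had the lowest ETV1 of its group at 107.7 TPM. ETS2 was at 6.93 TPM in POST-CX mouse 99. Groups of more than 10 tumours were not examined in this way.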

How the results depend on the processing

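The differences of ETV1 passed the threshold under no alternative. On rescaled TPM the number of members passing was 1 in POST-CX, 2 in CRPC and 2 in ENZS against PRE-CX and 1 in ENZS against CRPC. After median-centring it was 3, 2, 2 and, in ENZR, 3 against PRE-CX, beside 4114, 3514, 9089 and 8801 of all 17131 genes. Without the tumours under 70% human TPM it was 1, 1 and 2 against PRE-CX and 1 in ENZS against CRPC, beside 4411, 3876, 10250 and 5177 of all genes. With the compared groups alone it was 1, 1, 2 and, in ENZR, 1 against PRE-CX and 1 in ENZS against CRPC. Without the filter it was 0 in ENZS against PRE-CX, beside 8851 of the 39909 genes above 0. Leaving out 1 tumour at a time gave 0 to 1 in ENZS and 1 to 2 in ENZR, and 0 in the other comparisons. No share of all genes stands beside the counts for the compared groups alone and for tumours left out. Those counts are therefore not read as results about the members. Over the lists other than cell type markers and the 7 pairs of groups, 72 calls became 151 on rescaled TPM, 121 after centring and 140 without the low tumours. In the difference of relapse steps 0 became 3 after centring. Calls over all genes tested rose as well on rescaled TPM against PRE-CX. They went from 741 to 4596 in POST-CX, 1272 to 3495 in CRPC, 6590 to 10549 in ENZS and 4981 to 10081 in ENZR. The 3 ratios became 1 without PRE-CX mouse 112, the ETV1 to SPDEF ratio of ENZR then differing by -0.029, and both correlations in CRPC passed by Pearson's r under each alternative run, while by Spearman's rho that with FOXA1 did not (adjusted p = 0.265). The cause of these shifts was not tested.

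Directions that turned belonged to differences that did not pass. On rescaled TPM, ETS2 was 0.080 in ENZR against PRE-CX, ETV1 and EHF were -0.045 and -0.20 in CRPC against POST-CX, EHF was 0.036 in ENZS against CRPC, and ETS2, EHF and ELF3 were 0.10, 0.17 and 0.089 in ENZR against ENZS. The differences of the relapse steps were 0.061 for ETS2 and 0.37 for EHF. After centring, ELF3 was -0.044 in ENZS against PRE-CX, EHF -0.053 in CRPC against POST-CX, ETV5 -0.0082 in ENZS against CRPC, and ETS2, EHF and ELF3 were 0.15, 0.17 and 0.082 in ENZR against ENZS. The relapse steps then differed by 0.12 for ETV5, 0.050 for ETS2 and 0.22 for EHF. Without the low tumours, ETS2 was 0.010 in ENZR against PRE-CX, EHF -0.27 in CRPC against POST-CX, ETS2 and EHF 0.062 and 0.20 in ENZR against ENZS, the relapse steps differed by 0.0086 for ETS2 and 0.47 for EHF, and the ETV1 to ELF3 ratio was 0.019 in CRPC against POST-CX. Correlations with ETV1 on TPM as deposited turned positive in POST-CX for SPDEF (0.73), EHF (0.70), ELF3 (0.79), ETS2 (0.35) and FOXA1 (0.79), and in ENZR for SPDEF (0.34), EHF (0.18), ELF3 (0.25) and ETS2 (0.13).

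Leaving out 1 tumour at a time, ETV1 ranged from -0.0033 to 0.31 in POST-CX against PRE-CX. ETS2 ranged from -0.13 to 0.038 in ENZS and from -0.19 to 0.0095 in ENZR against PRE-CX, and from -0.13 to 0.061 in ENZR against ENZS. EHF ranged from -0.15 to 0.27 in CRPC against POST-CX, from -0.084 to 0.018 in ENZS against CRPC, from -0.13 to 0.16 in ENZR against ENZS, and from -0.31 to 0.12 between the relapse steps. No paired analysis was possible because no mouse number is shared between groups. Alternatives on the PRE-CX tumour highest in SPDEF, on the lists and on the spread without low tumours were chosen after seeing the data. TPM without counts set no depth limit that could be computed.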
